A study of Drosophila melanogaster with 23 samples.

Results

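The pair-rule genes of Drosophila melanogaster were followed through embryogenesis by RAMPAGE, which reads the capped 5' ends of RNA and so assigns the RNA present to promoters. They were taken from the deposited tables by identifier, namely eve (FBgn0000606), h (FBgn0001168), run (FBgn0003300), ftz (FBgn0001077), odd (FBgn0002985), prd (FBgn0003145), opa (FBgn0003002), slp1 (FBgn0003430) and slp2 (FBgn0004567), which are 9 of 10622 genes with 15 of 24730 transcription start site clusters (TSCs, the units read as promoters). Whole embryos of the strain y; cn bw sp, otherwise untreated, came from population cages of 2- to 7-day-old flies and were collected in 23 successive 1-hour windows from 0-1 h to 22-23 h after egg laying, as the second biological replicate of a time course. Each window is 1 barcoded sample of many pooled embryos, called a library here, with no replicate, so the error of a single value covers counting only and the error of a test came from the scatter between neighbouring windows. In whole embryos, fewer cells of a type and less RNA per cell cannot be told apart. A level is that of the RNA present, maternally deposited RNA included, and not a rate of initiation.

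Segmentation of the fly embryo proceeds by a cascade in which maternal gradients place the gap genes, gap proteins place the pair-rule genes in stripes with a double-segment period, and the pair-rule proteins then set the single-segment pattern of the segment polarity genes. The pair-rule genes all encode transcription factors. Those first placed by gap proteins are called primary (here eve, h, run, ftz and odd). Those that depend largely on the others are called secondary (prd, slp1 and slp2), and opa is counted with them here. Several pair-rule genes are used again later in the nervous system, the heart and the gut.

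Levels are given as RPM, reads scaled to 1000000 reads in TSCs of a library, with exact 95% intervals (Clopper-Pearson). A transcript gives a single 5' end whatever its length, so RPM values can be set side by side between genes. The shallowest library, that of 5-6 h, had 286206 reads and the deepest, that of 1-2 h, had 14705005, and 7 libraries held fewer than 1000000 reads, 4-5 h and 5-6 h among them. A count of 0 was read as at most 3 reads, which is 10.5 RPM at 5-6 h and 0.204 RPM at 1-2 h. The highest windows of the stage markers followed the labels. The summed level of the maternal RNAs bcd, nos, osk and pgc was highest at 0-1 h (1695 RPM). That of the cellularization genes nullo, bnk, Sry-alpha and slam was highest at 2-3 h (2385 RPM), and that of 4 cuticle genes at 21-22 h (50498 RPM). The early cuticle sum was uneven, with 62.7 RPM at 2-3 h, 164 at 3-4 h (299 reads) and 7.62 at 4-5 h. It was 425 RPM at 8-9 h and 105 at 9-10 h. The source of these early cuticle reads was not tested. Summed markers of nervous system and muscle were highest at 19-20 h and 20-21 h. The nervous system sum at 19-20 h was mostly nSyb (538 of 552 RPM). The other nervous system markers were highest earlier, elav at 9-10 h (122 RPM) and repo at 10-11 h (10.5 RPM). Of the fat body and hemocyte markers only Hml was measured, with 0 reads up to 15-16 h and at most 8.88 RPM (8 reads at 21-22 h).

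The summed level of the pair-rule genes was highest at 3-4 h, around gastrulation. It was 117 RPM at 0-1 h (95% interval 110 to 124), 217 at 1-2 h, 815 at 2-3 h and 2555 at 3-4 h (2483 to 2630), then 1164 at 4-5 h and 89.3 at 22-23 h (61.9 to 125). Of the 9 genes, 6 had their highest level at 3-4 h, where 4.89% of all 9538 genes with a mean of at least 1 RPM did. The exceptions were eve at 2-3 h, slp1 at 5-6 h and slp2 at 6-7 h. All 9 passed the filter of 1 RPM.

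**Figure D1:**
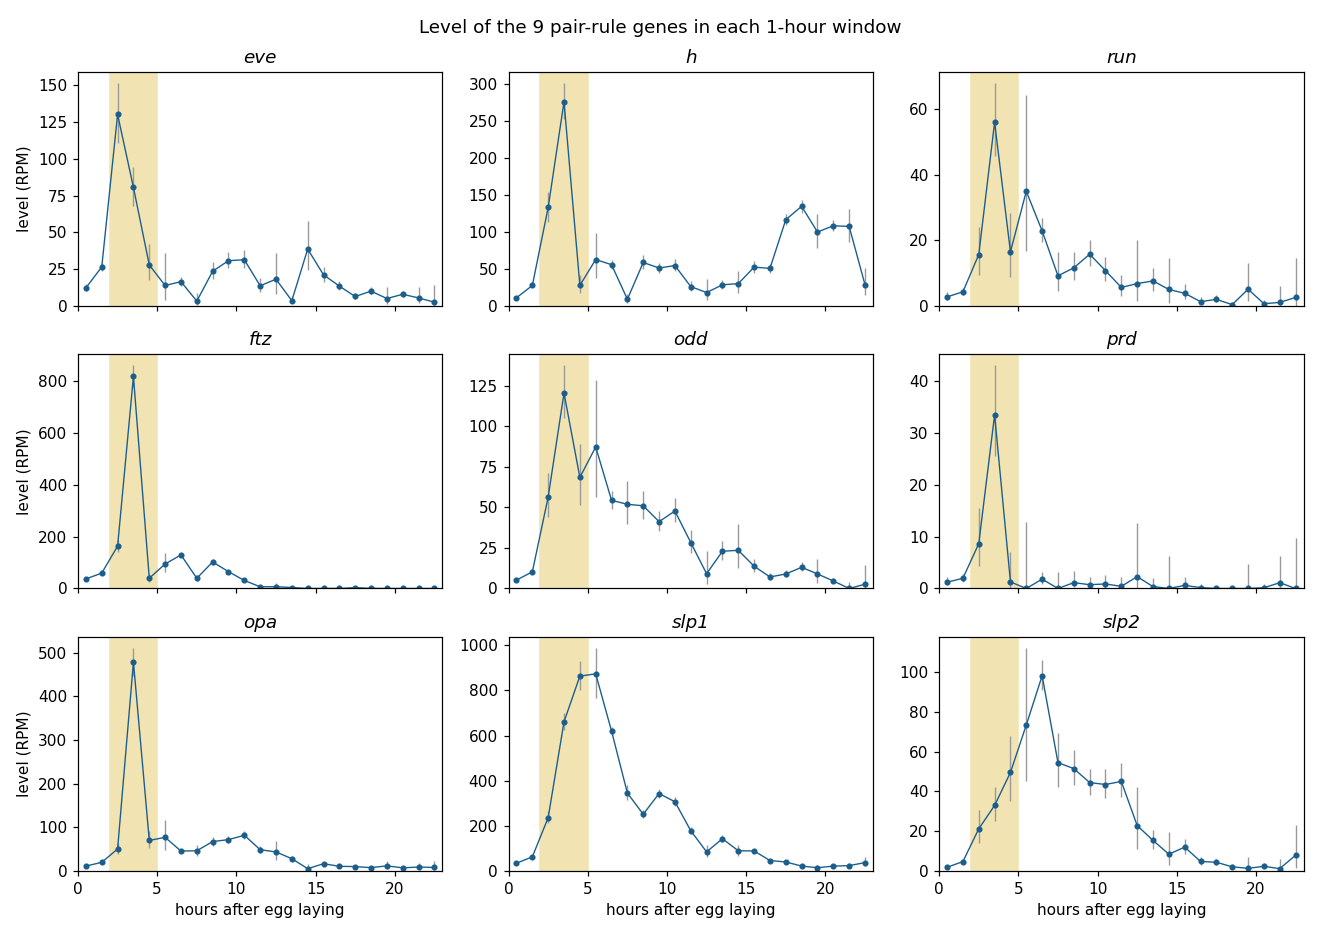
Level in RPM (y axis, from 0, scaled per gene) of each pair-rule gene against hours after egg laying (x axis). Points are the 23 libraries, placed at the middle of their window, grey bars are exact 95% counting intervals, and the shaded band is 2-5 h; 6 genes are highest at 3-4 h, and h has a later plateau from 17-18 h to 21-22 h between 100.1 and 135 RPM.

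Among the primary genes, eve, a homeodomain repressor whose stripe enhancers are a textbook case of gap gene input, came first. It measured 12.3 RPM at 0-1 h, 26.6 at 1-2 h, 130 at 2-3 h (111 to 152), 80.6 at 3-4 h (68.1 to 94.7) and 27.9 at 4-5 h. The intervals of its highest window and of 3-4 h did not overlap. Levels from 5-6 h on ran from 2.63 to 38.7 RPM, with a second broad maximum of 23.6 to 31.5 RPM in the 3 windows from 8-9 h to 10-11 h. A single value of 38.7 RPM at 14-15 h rested on 23 reads (24.5 to 58.1), next to 3.64 RPM at 13-14 h from 10 reads.

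The homeodomain gene ftz, which acts with the nuclear receptor Ftz-F1, had the steepest profile of the primary genes. It measured 36.9, 59.2 and 163 RPM in the first 3 windows, 817 at 3-4 h (776 to 859, 1489 reads) and 39.4 at 4-5 h (26.7 to 55.9, 31 reads). At 3-4 h it was the highest of the 9 genes, 5.01-fold above its next highest window. It then measured 94.3, 129, 39.4, 102, 64.8 and 30.9 RPM in the 6 windows from 5-6 h to 10-11 h and no more than 6.84 RPM in any later window, with at most 1 read in each of the libraries of 14-15 h, 15-16 h and 16-17 h. An isolated value of 3.12 RPM at 17-18 h rested on 23 reads (1.98 to 4.68), above its neighbours of 0.169 RPM (0.00429 to 0.943) and 0.441 RPM (0.0909 to 1.29).

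The gene h, a basic helix-loop-helix repressor that recruits Groucho, was the member with a strong late maximum. It measured 11.3, 27.8, 133, 276 and 27.9 RPM in the first 5 windows. From 17-18 h to 21-22 h it stood at 117, 135 (126 to 144), 100.1, 109 and 108 RPM, which is below its level of 276 RPM at 3-4 h (253 to 302) by 2.05-fold at the later maximum. This order depended on scaling: with TMM, which compares the bulk of genes between libraries in place of read totals, the highest window of h was 18-19 h.

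The Runt domain gene run and the zinc finger repressor odd also peaked at 3-4 h but stayed on longer. For run the level was 2.78 and 4.35 RPM in the first 2 windows, 55.9 at 3-4 h (45.6 to 67.9) and 34.9 at 5-6 h (16.8 to 64.3, 10 reads), so that its highest and next highest windows overlapped. For odd it was 5.20 and 10.3 RPM, then 121 at 3-4 h (105 to 138) and 87.3 at 5-6 h (56.5 to 129), which overlapped as well. From 6-7 h to 10-11 h odd held between 41.3 and 54.5 RPM.

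Among the secondary genes, the Zic-family zinc finger gene opa, which is expressed in a broad trunk domain and not in stripes, rose most abruptly. It measured 11.0, 19.7 and 50.2 RPM up to 2-3 h, 478 at 3-4 h (447 to 511) and 69.8 at 4-5 h. A lower maximum followed at 10-11 h with 81.6 RPM (72.3 to 91.8), 5.86-fold below the first. The paired-domain gene prd was the weakest member, with 141 reads over the series. It measured 8.62 RPM at 2-3 h and 33.4 at 3-4 h from 61 reads. No later window exceeded 2.28 RPM, a value from 1 read, but the count of 0 at 5-6 h allows up to 10.5 RPM.

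The forkhead genes slp1 and slp2, which lie beside each other on 2L and arose by duplication, peaked last. For slp1 the level was 34.2, 62.3, 236, 661, 863 (800 to 931), 873 (769 to 989) and 620 RPM in the first 7 windows, so 4-5 h and 5-6 h did not differ beyond counting error. With libraries under 500000 reads left out (5-6 h among them), or with TMM, its highest window was 4-5 h. For slp2 it was 1.82, 4.69, 21.2, 32.9, 49.5, 73.4 (45.4 to 112) and 98.1 RPM (90.8 to 106), with the last 2 overlapping.

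**Figure D2:**
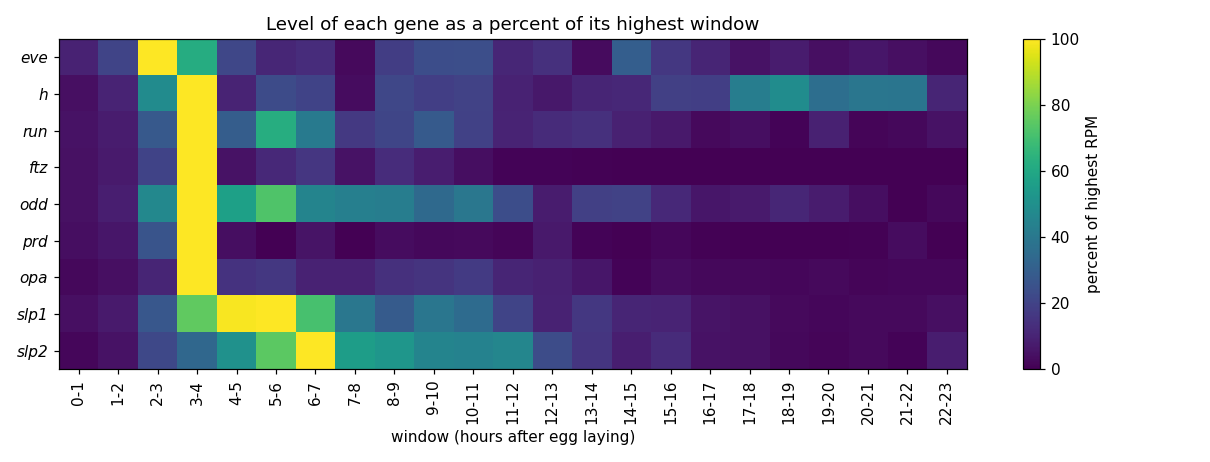
Each row is a pair-rule gene and each column a 1-hour window, and colour gives RPM as a percent of that gene's highest window (0 to 100). The band of highest values lies at 3-4 h for 6 genes, 1 window earlier for eve and later for slp1 and slp2, and h alone has a broad second band from 17-18 h.

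The ratio between the slp genes changed as they peaked. The level of slp1 was 11.1-fold that of slp2 at 2-3 h (exact 95% interval 7.51 to 17.2), 20.1-fold at 3-4 h (15.5 to 26.5), 11.9-fold at 5-6 h (7.62 to 19.6), 6.32-fold at 6-7 h (5.82 to 6.87) and 3.95-fold at 11-12 h (3.20 to 4.92). The intervals of 3-4 h and 6-7 h did not overlap. The course was not steady, with 4.88 at 8-9 h (4.06 to 5.91) and 7.72 at 9-10 h (6.61 to 9.05), whose intervals were apart. At 13-14 h the ratio was 9.31 (6.76 to 13.1), above that of 11-12 h, and from then on slp2 had 1 to 42 reads a window. The ratio was followed because its change was seen in the levels.

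**Figure D3:**
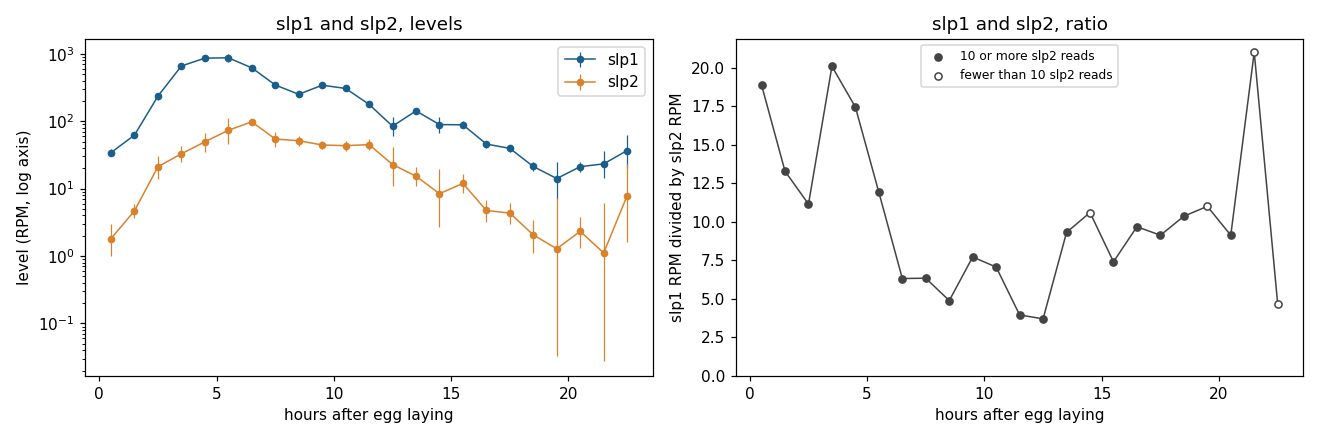
Left, level of slp1 and slp2 in RPM (log axis) with exact 95% counting intervals against hours after egg laying. Right, slp1 RPM divided by slp2 RPM (from 0), open points where slp2 had fewer than 10 reads; the ratio is 20.1 at 3-4 h and 6.32 at 6-7 h.

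How far each gene was confined to the segmentation hours was described by the share of its summed RPM that fell at 2-5 h, which had a median of 12.0% over all genes kept. It was 77.2% for prd, 63.8% for ftz, 48.9% for opa, 43.8% for eve, 36.3% for run, 33.3% for odd, 32.7% for slp1, 27.8% for h and 17.2% for slp2. All 9 lay above that median, and all but slp2 lay above the upper quartile over all genes, 19.1%. At least 25% of the highest level was reached in 1 window by ftz and opa, in 2 by prd, in 3 by eve, and in 9 by odd, slp1 and slp2, against a median of 13 windows over all genes. Entropy, which is low when a profile sits in few windows, had a median of 3.76 bits over the members and 4.13 bits over all genes, and was lowest for prd (2.24) and ftz (2.59) and highest for h (4.09). Only prd, ftz and opa (3.41) lay below the lower quartile over all genes, 3.62 bits.

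Whether the burst exceeded the scatter between neighbouring windows was tested by grouping windows into 8 bins and comparing 2-5 h with 0-2 h (limma on log2(RPM + 1), Benjamini-Hochberg over 9538 genes, called at an adjusted p below 0.05). On this scale the changes of low genes are understated. Of the 9 genes, 6 rose, where 5.68% of all genes did, and none fell, where 11.2% did. Windows of a bin are successive hours, so the residual also holds change within a bin.

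In this fit the largest differences belonged to slp1, odd and slp2. The order depended on the setting, since edgeR put opa first (3.71) and limma without the 4-5 h library put h first (3.36). For slp1 the windows were 34.2 and 62.3 RPM against 236, 661 and 863, with no overlap, a difference of 3.44 (SE 0.51, adjusted p 8.51e-05 by limma). For odd they were 5.20 and 10.3 against 56.5, 121 and 68.6, a difference of 3.23 (SE 0.60, limma adjusted p 0.000595). These groups did not overlap either.

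For slp2 the difference was 3.07 (SE 0.58, limma adjusted p 0.000666) and for opa, at 11.0 and 19.7 against 50.2, 478 and 69.8 RPM, 2.93 (SE 0.62, adjusted p 0.00172). For run, at 2.78 and 4.35 against 15.7, 55.9 and 16.5 RPM, it was 2.50 (SE 0.64, adjusted p 0.00821). In h, at 11.3 and 27.8 against 133, 276 and 27.9 RPM, it was 2.45 (SE 0.78, adjusted p 0.0332). The call of h was lost when any one of the libraries 0-1 h, 1-2 h, 2-3 h or 3-4 h was left out (adjusted p up to 0.352), and under TMM (adjusted p 0.0864). The call of run was lost without 0-1 h (adjusted p 0.124) or 3-4 h (0.0613), and that of opa without 0-1 h (0.0605).

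The other 3 genes did not pass. The difference was 1.82 for eve (SE 0.68, limma adjusted p 0.0715), 1.88 for ftz (SE 0.82, adjusted p 0.128) and 1.83 for prd (SE 0.72, adjusted p 0.0860). In each the 4-5 h library lay far below 3-4 h. Without that library all 3 were called, with differences of 2.43, 2.94 and 2.83 (limma adjusted p 0.0204, 0.00838 and 0.00317). That fit called 1290 of all 9538 genes in either direction, against 1610 with all libraries. edgeR on the recovered reads called all 9, but it also called more of all genes, 2027 with read totals and 2240 with TMM.

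**Figure D4:**
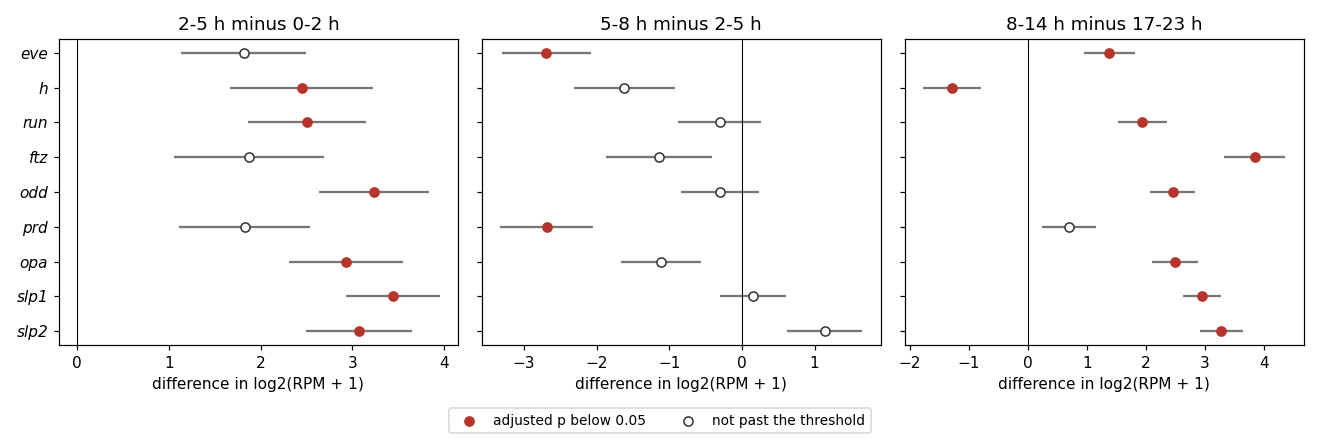
Difference in log2(RPM + 1) for each pair-rule gene (x axis, with 0 marked) in 3 contrasts, with bars of 1 standard error. Filled points passed an adjusted p below 0.05 in limma; 6 genes pass at left, eve and prd in the middle, and 8 at right, where h lies on the other side of 0.

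The end of the burst was less uniform. From 2-5 h to 5-8 h, eve and prd fell, 2 of 9 members, where 2.46% of all genes fell, and no member rose (7.43% of all genes). For eve the levels were 130, 80.6 and 27.9 RPM against 14.0, 16.6 and 3.35, without overlap, a difference of -2.69 (SE 0.61, limma adjusted p 0.00517). For prd they were 8.62, 33.4 and 1.27 against 0, 1.80 and 0 RPM, which overlapped, a difference of -2.69 (SE 0.64, adjusted p 0.00743). Its counts of 0 at 5-6 h and 7-8 h allow up to 10.5 and 2.51 RPM, the first of which is above its level at 2-3 h. Leaving out 7-8 h ended the call of eve (adjusted p 0.0524), and leaving out 3-4 h that of prd (0.0666). With 77.2% of its summed RPM at 2-5 h, prd passed the filter of 1 RPM largely through the windows it fell from. With no filter its call held (-2.69, limma adjusted p 0.00677 over 10622 genes).

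The remaining differences were -1.62 for h (limma adjusted p 0.162), -1.14 for ftz (0.396), -1.12 for opa (0.236), -0.31 for run (0.868), -0.30 for odd (0.857), 0.16 for slp1 (0.941) and 1.14 for slp2 (0.185). Without the 4-5 h library h and ftz passed too, with -2.53 (adjusted p 0.00860) and -2.20 (0.0261). edgeR also called opa (adjusted p 0.0352).

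The level at 4-5 h was low against both neighbours for several members, compared where both neighbours had at least 20 RPM. At 4-5 h ftz stood 7.05-fold and h 4.72-fold below the geometric mean of 3-4 h and 5-6 h, the only members of 7 compared to lie at least 4-fold below, where 0.639% of 3758 genes did. The values of opa and run were 2.75-fold and 2.68-fold below their neighbours, while slp1 and slp2 were within 1.14-fold of theirs. At 7-8 h, h stood 6.23-fold below its neighbours (9.22 RPM from 11 reads), 1 of 6 members, where 0.899% of 4116 genes did so. There eve, left out because 6-7 h lay under 20 RPM, measured 3.35 RPM (4 reads) between 16.6 and 23.6 RPM, and the intervals of both steps were apart. These windows were singled out after their values were seen, and with 1 library each a feature of the embryos and one of the library cannot be told apart.

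Later use was compared as 8-14 h against 17-23 h. Of the 9 genes, 7 were higher at 8-14 h, where 50.1% of all genes were, and 1 was lower, where 19.9% were. The share of members called higher is read against a median of 0.74 over all genes, which TMM scaling moved by -0.75 to 0.03; under TMM 6 were higher and 1 lower. Over all genes, 4776 were higher and 1895 lower with read totals, and 1961 higher and 2624 lower with TMM.

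The gene ftz, which marks neuronal precursors and neurons after segmentation, showed the largest difference. Over 6 windows each, its lowest, median and highest levels were 3.64, 18.9 and 102 RPM at 8-14 h and 0, 0.0726 and 3.12 RPM at 17-23 h, a difference of 3.84 (SE 0.52, limma adjusted p 9.86e-07). Its counts of 0 at 19-20 h and 22-23 h allow up to 3.85 and 7.88 RPM, above the lowest value at 8-14 h. For slp2 they were 15.3, 43.9 and 51.4 against 1.11, 2.19 and 7.88 RPM (3.27, SE 0.37, adjusted p 6.16e-08), and for slp1 84.4, 214 and 343 against 14.1, 22.3 and 39.6 RPM (2.95, SE 0.32, adjusted p 4.49e-08). The groups of slp1 and slp2 did not overlap.

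For opa the levels were 28.1, 57.9 and 81.6 RPM against 6.97, 8.38 and 11.5 (2.50, SE 0.39, limma adjusted p 7.10e-06). For odd they were 9.12, 34.8 and 51.1 against 0, 6.79 and 13.1 RPM (2.45, SE 0.38, adjusted p 6.18e-06). For run they were 5.67, 9.22 and 15.8 against 0.441, 1.57 and 5.13 RPM (1.94, SE 0.41, adjusted p 0.000224). Of these, odd overlapped between the groups, and opa and run did not.

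In eve, which marks motor neurons and pericardial cells at these stages, the levels were 3.64, 20.9 and 31.5 against 2.63, 6.03 and 10.1 RPM, overlapping, with a difference of 1.38 (SE 0.43, limma adjusted p 0.00713). That call was lost under TMM (0.63, adjusted p 0.268) and without the 4 libraries under 600000 reads (0.99, adjusted p 0.0603). The gene h went the other way, with 18.2, 40.1 and 58.9 RPM at 8-14 h and 28.9, 108 and 135 at 17-23 h, a difference of -1.28 (SE 0.49, adjusted p 0.0248). The groups overlapped through the 22-23 h library. Its call was lost without 12-13 h, 20-21 h or 21-22 h (adjusted p 0.0525 to 0.0627) and held under TMM (-2.09, adjusted p 0.00320). For prd, 0.364, 0.801 and 2.28 against 0, 0 and 1.11 RPM gave 0.69 (limma adjusted p 0.174). It was called with a pseudocount of 0.25 RPM (1.59, limma adjusted p 0.0457) and by edgeR with read totals (2.86, adjusted p 0.0280), and not by edgeR with TMM (2.27, adjusted p 0.154).

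Over the whole course, a spline with 8 degrees of freedom called all 9 genes (limma adjusted p 1.57e-11 for slp1 to 0.00190 for h), where 91.6% of all genes were called.

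Promoters were then described. A single TSC held 99.3% to 100% of reads in 7 of the 9 genes. In the release 5 (dm3) assembly, with starts counted from 1, the main TSCs lay at 2R:5866821-5866831 (eve, plus strand), 3L:8668776-8668923 (h, plus), X:20565458-20565480 (run, plus), 3R:2689992-2690060 (ftz, plus), 2L:3606709-3606760 (odd, minus), 2L:12085822-12085839 (prd, minus), 3R:678504-678596 (opa, plus), 2L:3825670-3825691 (slp1, plus) and 2L:3836816-3836866 (slp2, plus). Their widths ran from 11 bp for eve to 148 bp for h, with a median of 51 bp against 85 bp over the main TSCs of all genes. Those of eve, prd, slp1 and run, at 11 to 23 bp, were among the narrowest, since at most 11.7% of main TSCs were no wider. They held 1641 (eve), 141 (prd), 13420 (slp1) and 620 reads (run), and widths were not matched for read number.

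Only odd and opa had a second TSC above 1 RPM on average. In odd, the upstream TSC (56.3% of its reads) and a downstream TSC at 2L:3606523-3606554 (42.2%), 206 bp further along the minus strand, had separate courses. The upstream TSC measured 47.0, 101 and 55.9 RPM in the 3 windows of 2-5 h and 16.0 and 13.4 RPM in the 2 windows of 9-11 h. The downstream TSC measured 7.06, 15.4 and 11.4 RPM and then 25.0 and 33.8 RPM in the same windows, so the order of the TSCs turned between them. At 8-9 h they had 64 and 70 reads.

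The downstream TSC took 13.9% of odd reads at 0-2 h (Wilson 95% interval 9.74% to 19.5%, 194 reads), 13.3% at 2-5 h (10.1% to 17.3%, 346 reads), 27.1% at 5-8 h (23.2% to 31.3%), 61.5% at 8-11 h (57.0% to 65.8%, 470 reads), 70.1% at 11-14 h and 73.8% at 17-23 h (67.3% to 79.5%). The intervals from 5-8 h to 8-11 h did not overlap. Relative to the other TSC, the downstream TSC rose by 2.85 on the log2 scale between 2-5 h and 8-14 h (limma diffSplice, adjusted p 0.0101). The adjustment was over 8508 TSCs in 2758 groups, and 25.6% of these TSCs were called. A group was a gene with several kept TSCs, but all kept TSCs without a gene were entered as a single group. The adjusted p and the 25.6% therefore also rest on comparisons between unrelated TSCs. The test was added after the pattern had been seen. Without the 4 libraries under 600000 reads the value was 3.49 (adjusted p 5.67e-05).

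**Figure D5:**
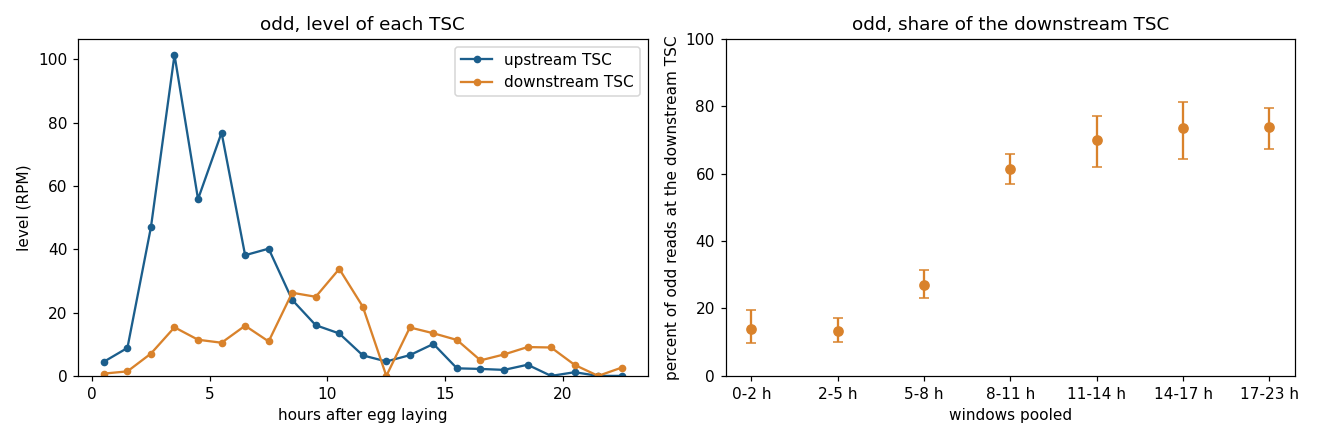
Left, level in RPM of the upstream and the downstream TSC of odd against hours after egg laying. Right, percent of odd reads at the downstream TSC (y axis, 0 to 100) with Wilson 95% intervals, reads pooled over the windows named on the x axis; the share is 13.3% at 2-5 h and 61.5% at 8-11 h.

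In opa, a broad TSC at 3R:694879-695216 (338 bp wide, plus strand), 16375 bp downstream of the main one, held 12.0% of reads. It reached 82.3 RPM at 3-4 h against 394 RPM at the main TSC. Its share was 17.1% at 2-5 h (Wilson interval 14.8% to 19.5%) and 6.56% at 5-8 h (4.48% to 9.51%), and its use relative to the main TSC at 8-14 h against 2-5 h differed by -0.78 (limma diffSplice, adjusted p 0.516). Tested singly, both of these opa TSCs rose from 0-2 h to 2-5 h, by 2.83 and 2.96 (limma adjusted p 0.00213 and 0.00605). Whether the broad one is a separate promoter was not tested.

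Of the 15 TSCs, 11 had a mean of at least 1 RPM and were tested among 15235 by limma with the same contrasts. From 0-2 h to 2-5 h 8 rose, where 5.83% of TSCs did, and none fell (7.75%). They were the single or main TSCs of h, run, odd, opa, slp1 and slp2 and the second TSCs of odd and opa. From 2-5 h to 5-8 h those of eve and prd fell, where 2.61% of TSCs did, and none rose (6.85%). At 8-14 h 9 were higher than at 17-23 h, where 47.2% of TSCs were, and that of h was lower (18.2%).

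A pair of weak distant TSCs had an uncertain assignment. The first TSC listed for eve, 242672 bp upstream of the main one with 12 reads, overlapped a TSC listed for eIF3j with the same read number. That of slp1, 226826 bp upstream with 20 reads, lay 6274 bp from a TSC of odd. They held 0.726% and 0.149% of the reads of their genes.

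The profiles of the members resembled each other to different degrees. Over 36 pairs, the Pearson correlation of log2(RPM + 1) across the 23 windows had a median of 0.62 and ran from -0.19 for h with slp2 to 0.94 for slp1 with slp2. The points share libraries and depth, and no test was made. By the same measure over all genes outside the set, the 2 profiles most like each member were Rox8 (0.81) and FBgn0052043 (0.82) for eve, egr (0.74) and Ndae1 (0.70) for h, neur (0.93) and CG8960 (0.92) for run, E(Pc) (0.95) and kuk (0.95) for ftz, hbn (0.93) and mira (0.92) for odd, CG15696 (0.88) and CG12420 (0.87) for prd, FBgn0264754 (0.92) and Psi (0.91) for opa, Ppa (0.96) and Bacc (0.96) for slp1, and FBgn0004364 (0.96) and CR43080 (0.96) for slp2. The likeness of h was the lowest of the 9.

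The genes around them in the segmentation network were counted in the same fit. Over all genes, 5.68% rose and 11.2% fell from 0-2 h to 2-5 h, and 7.43% rose and 2.46% fell from 2-5 h to 5-8 h. Under TMM, 421 of 9538 genes rose and 1298 fell at 2-5 h, and 543 rose and 187 fell at 5-8 h. At 8-14 h, 1961 were higher under TMM than at 17-23 h and 2624 were lower. From 0-2 h to 2-5 h, 5 of 8 maternal and gap genes rose and 2 fell (medians 2.27 for the list and -0.07 for all genes). The gap genes hkb and kni rose by 3.10 and 2.81 (limma adjusted p 0.0123 and 0.00301), and the maternal genes cad and bcd fell by 1.87 and 1.47 (adjusted p 0.00904 and 0.0271). From 2-5 h to 5-8 h none of the 8 passed in limma, and at 8-14 h 6 were higher than at 17-23 h, where 50.1% of all genes were. Under TMM the counts were 4 risen, 2 fallen and 5 higher later.

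The segment polarity genes, the targets of the pair-rule proteins, were tested in 10 of 12 cases. Of the 10, 7 rose from 0-2 h to 2-5 h (median 2.66), led by ci (3.37, limma adjusted p 0.00122), which encodes the Hedgehog pathway factor, and ptc (3.19, adjusted p 0.000314), the Hedgehog receptor. The genes inv and fz2 rose further from 2-5 h to 5-8 h, by 1.98 and 1.60 (adjusted p 0.0252 and 0.0107), and none fell. At 8-14 h 9 were higher than at 17-23 h, where 50.1% of all genes were. Under TMM the counts were 7, 1 and 8.

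Of 10 tested paralogues of the members, 6 rose at 2-5 h (median 2.31). Among them were Antp (3.92, limma adjusted p 3.07e-05) and bowl (3.42, adjusted p 2.13e-05), a zinc finger relative of odd. A further rise at 5-8 h passed for bowl, Poxn and Scr (2.08, 2.19 and 2.46, adjusted p 0.00118, 0.00192 and 0.00417), none fell, and 9 were higher at 8-14 h, where 50.1% of all genes were. Under TMM the counts were 5, 3 and 7. Both measured Toll receptors of the list rose, Toll-6 by 3.01 and Tollo by 1.85 (adjusted p 0.00241 and 0.0107), Toll-6 rose further at 5-8 h by 1.94 (0.0348), and both were higher at 8-14 h, where 50.1% of all genes were, with the same counts under TMM.

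Of 7 activators and cofactors, only 1 passed at 2-5 h and only 1 at 5-8 h. Trl, which encodes GAGA factor, rose by 1.24 at 2-5 h (limma adjusted p 0.0180). The gene ftz-f1, the partner of Ftz, fell by 1.89 from 2-5 h to 5-8 h (adjusted p 0.00466). At 8-14 h 6 of 7 were higher, where 50.1% of all genes were. Under TMM none rose at 2-5 h in limma, 1 fell at 5-8 h, and 3 were higher and 1 lower at 8-14 h.

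Reads of the members were present in the first window, before the stage at which their stripes form. At 0-1 h the 9 genes stood at 1.85% (slp2) to 9.48% (eve) of their highest level, and each had 87.8 to 763 reads there per 10000 reads in the other 22 windows combined (median 309). The range was 1171 to 3029 for the 4 cellularization genes and 3.87 to 5.87 for the 4 cuticle genes, which are made late. These are raw reads and also follow depth, with 8263691 reads at 0-1 h and 1275416 at 2-3 h. As a percent of their highest level, the cellularization genes stood at 6.47% to 35.0% at 0-1 h, which overlapped the pair-rule genes. The cuticle genes stood at 0.0261% to 0.137%. What contributed to these early reads was not tested.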

How the data were processed

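Per the labels and the methods of the study, the 23 samples (each called a library here) were barcoded at reverse transcription, pooled, prepared jointly and sequenced in a single lane, and the authors mapped reads with STAR (version not given in the sources used here) to release 5 (dm3) and called TSCs on the pooled series. The deposited gene and TSC tables give RPM, which the authors scaled to reads in TSCs. A deposited table with a Z-score per gene was not used, and the other deposited values, TSC positions, came from the BED file. All 100% of RPM values were whole multiples of 1 read (within 0.001), so whole reads were recovered, and each gene row equalled the sum of its TSCs. Reads in TSCs without a gene (0.510% of the total) stayed in the totals and out of the gene tests. Such TSCs with a mean of at least 1 RPM were kept in the tests of TSCs. In the test of start site use they were entered as a single group. The treatment of PCR duplicates is not given in the sources used here, and intervals cover counting error only.

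Tests used limma 3.58.1 (trend and robust options, R 4.3.3) on log2(RPM + 1), a pseudocount of 1 RPM, over genes or TSCs with a mean of at least 1 RPM, with 8 bins of windows (edges 0, 2, 5, 8, 11, 14, 17, 20 and 23 h) and a residual of 15 degrees of freedom, or a natural spline with 8 degrees of freedom. Since windows of a bin are not replicates, p-values measure change beyond the spread between neighbouring hours. Adjusted p-values (Benjamini-Hochberg) are over all features kept. Scripts were tested on simulated data. Alternatives were other pseudocounts and filters, TMM scaling, edgeR 4.0.16 on the recovered reads (the count test), other splines, and leaving out libraries. Python 3.11.15 was used for descriptions.

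Members and gene lists were chosen with earlier results of these data known. All 9 members are named in full, genes of a list by their largest changes past the threshold in the contrast described (at most 4 per list; cad and bcd are named outside this rule, as the 2 that fell, after their values were seen), and the 2 most alike profiles per member by correlation. Symbols came from the reference annotation by gene identifier for 10253 of 10622 genes. The list genes wg, 18w and lz, and the marker Fbp1, were not matched by identifier and gsb-n, RunxA and RunxB lay under 1 RPM, so these were not analysed. The gene gsb is in the lists of segment polarity genes and of paralogues. Sequences of promoters and proteins were not used here, and the planned motif search was not run.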

Additional observations from a re-analysis of the deposited data

Results flagged for a closer look

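Weak TSCs without an assigned gene lay near several members, on sequence that none of the comparisons used. Within 10000 bp of the main TSC of ftz, a gene-less TSC on the opposite strand (3R:2684777-2684901 in release 5, minus, 5091 bp away) held 53 reads and was highest at 3-4 h, the window in which ftz was highest, with 15.9 RPM from 29 reads. Near slp1, a gene-less TSC on the opposite strand (2L:3820111-3820117, minus, 5553 bp away) held 33 reads and peaked at 5-6 h, where 5 reads gave 17.5 RPM. That library is the shallowest, at 3.49 RPM per read, and 4 of the 5 gene-less TSCs near members were highest in it. Those near ftz and slp1 exceeded the level that a count of 0 allows in their window, which was 1.65 RPM at 3-4 h and 10.5 RPM at 5-6 h. The other 3, near odd, run and slp2, had 19 to 23 reads each and stayed below that limit in their highest window. The relation of any of these to the genes was not tested.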

How the results depend on the processing

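No paired analysis was possible because each window is 1 library. Leaving out 1 library at a time, 3 to 9 pair-rule genes rose at 2-5 h (6 with all libraries), with 3 without 0-1 h and 9 without 4-5 h, 1 to 4 fell at 5-8 h (2 with all), with 1 without 3-4 h or without 7-8 h and 4 without 4-5 h, and 7 were higher at 8-14 h each time. Where a bin was left with 1 library, that library was assumed to vary like the others. The median share of RPM at 2-5 h was 36.3% and became 42.3% without the 5-6 h library. The other settings (pseudocounts of 0.25 and 4 RPM, filters, TMM, edgeR) gave 5 to 9 risen, 2 to 3 fallen and 6 to 8 higher at 8-14 h. With 4 degrees of freedom the spline called 8 genes, and h had an adjusted p of 0.0613. No direction of a called change reversed in these alternatives. Over single genes and their alternatives, 536 values kept their call or moved by less than counting error, 21 passed the threshold in addition, 17 lost it and 12 descriptive values moved. Over all genes, calls for the first contrast numbered 1610 with all libraries, 539 without 0-1 h, 842 without 1-2 h and 2240 with edgeR and TMM, and for the change to 5-8 h 944, 588 without 2-3 h, 586 without 7-8 h and 1448 without 4-5 h. Depth limits prd most, and a value at 5-6 h rests on steps of 3.49 RPM.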
